A study of Mus musculus with 3 samples.

Results

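The genes described here are 6 transcription factor genes that set or keep the choice between the CD4 and the CD8 lineage of T cells: Zbtb7b, Runx3, Runx1, Cbfb, Gata3 and Bcl11b. They were chosen by name, not by a rule on their values, but with earlier results of these data known. All 6 were found among the 14811 genes of the count table. Mouse T cells came from B16F10 melanomas, a transplanted mouse tumor line grown under the skin in matrigel, of 10 pooled, otherwise untreated mice. Purified CD4+ T cells marked by CD45.1, or CD8+ T cells marked by CD45.2, had been injected into the tail vein 1 day after the tumor cells, and the tumors were removed on day 11. CD45.1+ cells with CD4 alone or with CD4 and CD8, and CD45.2+ cells with CD8 alone or with both, were sorted, hashtagged, mixed and read as 1 droplet library of 5′ cDNA, with 6200 cells taken into the preparation. The deposited annotation gives each cell an identity (Cd4 or Cd8), a hashtag number from 1 to 4 and, for some cells, the call Tdp, which all of its cells meet by holding transcripts of Cd4 as well as Cd8a. This gives 4 classes, namely the Cd4 class (2477 cells), Cd4-identity Tdp cells (93), the Cd8 class (2681) and Cd8-identity Tdp cells (313). Nothing ties a hashtag number to a sorted population, and the numbers are parts of 1 pool of mice, not replicates.

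In the thymus, precursors that carry both co-receptors become either CD4 helper cells or CD8 killer cells. ThPOK, the protein of Zbtb7b, is needed for the CD4 fate and represses Runx3 and the CD8 genes. RUNX3, which binds DNA together with its partner CBFβ (from Cbfb), silences Cd4 and Zbtb7b in CD8 cells and supports cytotoxic genes, while RUNX1 shares that partner and motif. GATA3 acts upstream of ThPOK in CD4 development, and BCL11B keeps T cell identity in both lineages.

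The library held 26763131 UMIs (unique molecules) in 5564 cells, with a median of 3869 per cell, and the median was 3478 in the Cd4 class, 4668 in Cd4-identity Tdp cells, 4159 in the Cd8 class and 4981 in Cd8-identity Tdp cells. Levels are counts summed over the cells of a group and scaled to its total (CPM), and each is compared only with the same gene elsewhere. With 1 library there is no replicate error and no test, and in such sums fewer cells with a transcript and less of it per cell cannot be told apart. Intervals are 95% limits from counting alone, and PCR or sorting error is not in them. A gene is called higher or lower where the fold is at least 1.5 and its interval leaves out 1, among genes with at least 20 UMIs in the pair of classes. The 7 T cell markers summed to between 4611 and 7127 CPM in 8 of the 10 clusters made from these cells, whereas the 10 macrophage markers summed to at most 38.6 CPM there. The sort also held a macrophage or monocyte-like cluster (number 5, 296 cells, median 9484 UMIs), with 1418 CPM of T cell and 7212 CPM of macrophage markers, and an NK-like cluster (number 10, 61 cells), with 3239 CPM of T cell and 6277 CPM of NK markers. Cluster 5 also had 844 CPM of the 7 dendritic markers, all more than 2-fold above the other cells. H2-Aa and H2-Eb1 were among its leading genes, and dendritic cells in it were not told apart from macrophages. The summed level of the 10 macrophage markers was 510 CPM in the Cd4 class, 78.6 CPM in Cd4-identity Tdp cells, 1125 CPM in the Cd8 class and 404 CPM in Cd8-identity Tdp cells. At least 2 UMIs of each of 2 T cell receptor beta variable genes, a mark that droplets with 2 cells can carry, were found in 9.29%, 38.7%, 12.8% and 19.2% of the cells of these classes. Cells with few UMIs of these genes cannot carry the mark, so its shares also depend on depth. Droplets with 2 cells can lack it, and leaving marked cells out need not remove them all.

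Zbtb7b lies on chromosome 3 (89377644 to 89393673, GRCm38.p6) and Runx3 on chromosome 4 (135120645 to 135177990), both protein coding. RefSeq gives each gene a pair of starts, and the counts do not tell these starts apart. Zbtb7b was lower in the Cd8 class than in the Cd4 class and Runx3 higher, so the 250 bases upstream of their starts were searched for the core of the RUNX motif, TGTGGT, on both strands. At 1 start of each gene the window held the motif, and these windows are shown 5′ to 3′ with the motif in capitals, the first on the minus strand at chr3:89387672-89387921 and the second on the plus strand at chr4:135120395-135120644 (RefSeq, GRCm38.p6).
Zbtb7b start 2: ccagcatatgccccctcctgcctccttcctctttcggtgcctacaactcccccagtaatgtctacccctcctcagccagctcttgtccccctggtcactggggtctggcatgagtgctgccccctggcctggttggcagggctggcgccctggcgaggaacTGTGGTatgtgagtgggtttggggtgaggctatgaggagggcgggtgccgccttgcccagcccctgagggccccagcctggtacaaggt
Runx3 start 1: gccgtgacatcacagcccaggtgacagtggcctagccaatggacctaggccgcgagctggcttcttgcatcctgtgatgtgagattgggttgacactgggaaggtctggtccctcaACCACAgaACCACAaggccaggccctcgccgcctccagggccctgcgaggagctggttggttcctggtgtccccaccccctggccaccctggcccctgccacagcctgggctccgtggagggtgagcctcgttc
The Zbtb7b window held TGTGGT once, at base 162, and the Runx3 window held its reverse complement, ACCACA, at bases 117 and 125, counted from 1 at the 5′ end. Zbtb7b start 1 (chr3:89393379-89393628) and Runx3 start 2 (chr4:135152295-135152544) held none, and neither did the starts of Runx1, Cbfb, Gata3 and Bcl11b. Of 32851 mouse promoter windows of this length, 14.0% held the motif. The GATA motif AGATAA was found at no start of the 6 genes and in 9.99% of all windows. A match describes letters, not binding.

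Zbtb7b was the gene of the 6 whose level differed most between the classes. It stood at 51.0 CPM (46.8 to 55.5) in the Cd4 class, 28.0 CPM (16.0 to 45.4) in Tdp cells of Cd4 identity, 16.5 CPM (11.2 to 23.4) in those of Cd8 identity and, last, 15.3 CPM (13.3 to 17.5) in the Cd8 class. The Cd4 class was above all others beyond counting error, whereas the intervals of the other 3 classes overlapped. The gene was sparse, with 800 UMIs in the library and at most 3 in any cell. The hashtag parts of the Cd4 class stood at 50.6, 53.5, 42.4 and 52.3 CPM for numbers 1 to 4, and those of the Cd8 class at 28.0, 13.0, 11.1 and 15.8 CPM. The parts of the Cd4 class thus all lay above those of the Cd8 class, and number 1 was the highest of the latter. In Cd8-identity Tdp cells the parts stood at 24.3, 13.5, 13.8 and 17.3 CPM, within the range of the Cd8 class. In Cd4-identity Tdp cells they rested on 0 to 7 UMIs, at 54.2 CPM for number 1, 18.6 for number 2 and 36.1 for number 4, while number 3 (9 cells) had no UMI and an upper limit of 41.0 CPM.

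Runx3 had nearly the reverse order and a much smaller spread. It stood at 122 CPM (116 to 129) in the Cd4 class, 142 CPM (112 to 176) in Cd4-identity Tdp cells, 176 CPM (169 to 183) in the Cd8 class and 179 CPM (161 to 199) in Cd8-identity Tdp cells. The last pair did not differ beyond counting error, and the interval of Cd4-identity Tdp cells reached into those of all 3 other classes. The parts of the Cd4 class stood at 116, 121.5, 138 and 135 CPM for numbers 1 to 4. Those of the Cd8 class stood at 136, 176, 197 and 172.5 CPM, so that number 1 of the Cd8 class lay within the range of the Cd4 class.

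Runx1, on chromosome 16 (92601466 to 92826074), encodes the RUNX protein that silences Cd4 in early precursors. It stood at 87.9 CPM (82.3 to 93.7) in the Cd4 class, 80.8 CPM (68.5 to 94.7) in Cd8-identity Tdp cells, 73.4 CPM (52.9 to 99.2) in Cd4-identity Tdp cells and, lowest, 56.3 CPM (52.4 to 60.5) in the Cd8 class. By hashtag number it ran from 84.8 to 93.7 CPM in the Cd4 class and from 49.9 to 81.7 CPM in the Cd8 class. Only the Cd8 class was set apart from the Cd4 class and from Cd8-identity Tdp cells by intervals that do not meet. Cbfb, on chromosome 8 (105170674 to 105217989), stood at 77.1 CPM (71.9 to 82.6) in the Cd4 class and 78.6 CPM (73.9 to 83.5) in the Cd8 class, which overlap. In the Tdp cells Cbfb stood at 55.9 CPM (38.2 to 78.9) with Cd4 identity and 96.2 CPM (82.7 to 111) with Cd8 identity, and these intervals do not meet.

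Gata3, on chromosome 2 (9857078 to 9887953), stood at 67.9 CPM (63.0 to 73.0) in the Cd4 class, 64.6 CPM (45.5 to 89.1) in Cd4-identity Tdp cells, 53.2 CPM (43.3 to 64.7) in Cd8-identity Tdp cells and, lowest, 42.4 CPM (39.0 to 46.1) in the Cd8 class. Neighbours in this order overlapped, and the Cd4 and Cd8 classes at its ends did not. Its hashtag parts ran from 62.4 to 78.8 CPM in the Cd4 class and from 38.5 to 45.2 CPM in the Cd8 class, with no overlap. Bcl11b, on chromosome 12 (107910403 to 108004145), stood at 115 CPM (109 to 122) in the Cd4 class and 86.4 CPM (81.5 to 91.5) in the Cd8 class. Its levels in the Tdp cells lay between these, at 101 CPM (77.0 to 131) with Cd4 identity and 99.4 CPM (85.7 to 115) with Cd8 identity. Its hashtag parts ran from 103 to 124 CPM in the Cd4 class and from 74.1 to 91.8 CPM in the Cd8 class, again with no overlap. The plot of levels by class shows the 6 genes side by side.

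**Figure D1:**
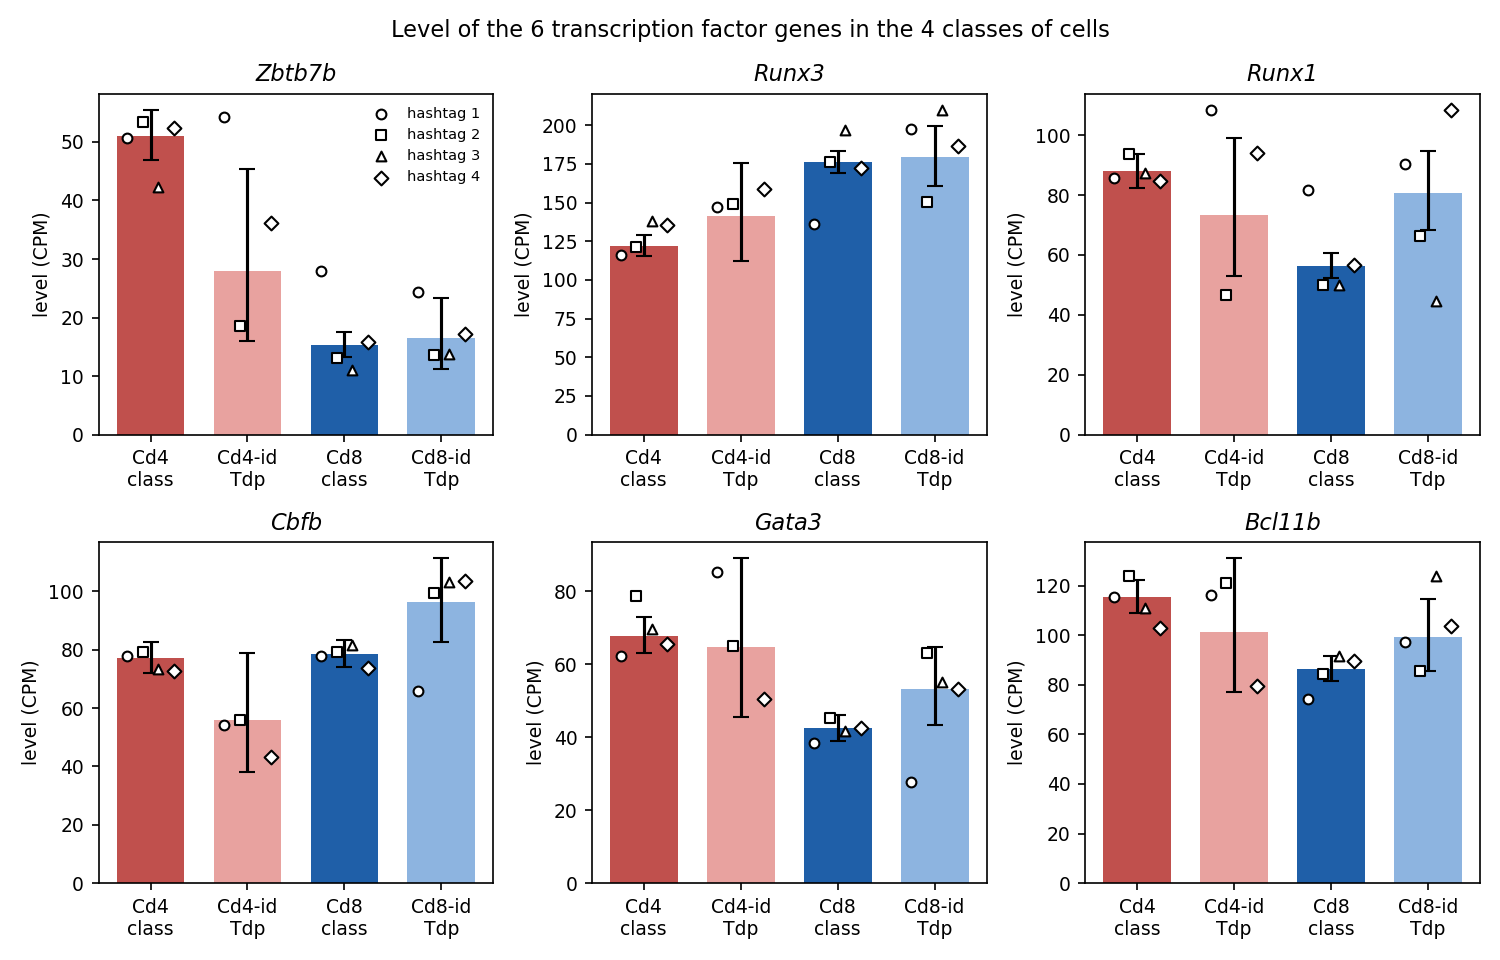
Level (CPM) of the 6 genes in the 4 classes. Bars are whole classes, error bars are exact Poisson 95% intervals and open symbols are the parts with hashtag numbers 1 to 4 that hold at least 20 cells. Zbtb7b stands at 51.0 CPM in the Cd4 class and 15.3 CPM in the Cd8 class, and Runx3 stands at 122 and 176 CPM.

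The Cd8 class was set against the Cd4 class to see how these factors part the lineages in the tumor. Of the 6 genes, 3 were lower in the Cd8 class (Zbtb7b, Runx1 and Gata3) and none was higher, beside 14.7% of the 11643 measured genes called in either direction, 8.19% higher and 6.55% lower. Zbtb7b was 3.33-fold lower (2.84 to 3.93), Gata3 1.60-fold lower (1.43 to 1.79) and Runx1 1.56-fold lower (1.42 to 1.72). Runx3 was 1.44-fold higher (1.35 to 1.54) and Bcl11b 1.34-fold lower (1.23 to 1.45), both short of the 1.5-fold rule. Cbfb was at 1.02-fold (0.930 to 1.12).

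Within hashtag numbers 1 to 4 the log2 ratio of Zbtb7b was -0.85, -2.04, -1.93 and -1.73. That of Runx3 was 0.23, 0.54, 0.51 and 0.35, that is, higher in the Cd8 class in each number. Zbtb7b, Runx1, Gata3 and Bcl11b were lower in the Cd8 class in 4 of 4 numbers, with Runx1 between -0.91 and -0.07, Gata3 between -0.80 and -0.62 and Bcl11b between -0.64 and -0.20. Number 1 had the ratio nearest to 1 for Zbtb7b, Runx3 and Runx1. It also had the largest share of cluster 5 cells in its Cd8 class, 17.3% against 3.0% to 9.6% in the other numbers. Without clusters 5, 8 and 10, described below, number 1 was still nearest to 1 for Zbtb7b, at 0.421 against 0.139, 0.238 and 0.181. Runx3 was then at 1.29 against 1.49, 1.46 and 1.39. For Runx1 number 4 was then nearest to 1, at 0.589 against 0.577 in number 1. Over all clusters and without number 2, Runx1 was 1.45-fold lower, and without number 3 it was 1.47-fold lower, which ends its call.

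Of the Zbtb7b UMIs of the Cd8 class, 40.1% (83 of 207) lay in the macrophage or monocyte-like cluster 5, which held 7.83% of its cells and 14.3% of its UMIs. Cluster 8 added 5 Zbtb7b UMIs and cluster 10 added 4, and cluster 10, at 15.8 CPM, stood near the 15.3 CPM of the whole class. Without cluster 5 alone, Zbtb7b was 4.82-fold lower in the Cd8 class than in the Cd4 class, at 10.7 against 51.5 CPM. Together, clusters 5, 8 and 10 held 13.5% of the cells of the Cd8 class and 17.0% of its UMIs, but 44.4% of its Zbtb7b UMIs (92 of 207) and 38.1% of its Runx1 UMIs. For Runx3 the share was 12.0%, for Bcl11b 6.0% and for Gata3 11.7%. In the Cd4 class these clusters held 7.7% of the Zbtb7b UMIs and 8.6% of all UMIs. Cluster 8 is unnamed, with a median of 884 UMIs and the melanocyte genes Dct and Tyrp1 among its leading genes.

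Without clusters 5, 8 and 10, Zbtb7b stood at 10.3 CPM in the Cd8 class (2320 cells) and 51.6 CPM in the Cd4 class (2355 cells), which is 5.03-fold lower (4.10 to 6.22). Runx1 was then 1.98-fold lower, at 42.1 against 83.4 CPM, and Runx3 1.504-fold higher (1.40 to 1.62), which passes the rule. Where only cells with a UMI of their own co-receptor were kept, Zbtb7b was 5.51-fold lower, at 9.05 CPM in 1954 cells with Cd8a against 49.9 CPM in 1570 cells with Cd4. Runx3 was 1.59-fold higher (1.47 to 1.73) in these cells and Runx1 1.96-fold lower. Gata3 was 1.36-fold lower there, and 1.42-fold lower without cells that hold a Foxp3 UMI, and neither passes the rule. In number 1 the ratio of Zbtb7b over cells with their own co-receptor was 0.266 (0.139 to 0.466), in number 2 0.114 (0.0652 to 0.189), in number 3 0.190 (0.109 to 0.341) and in number 4 0.255 (0.151 to 0.418). That of Runx3 was 1.61, 1.503, 1.39 and 1.46, so each number gave the same pair of directions. Both selections were chosen after the data were seen.

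**Figure D2:**
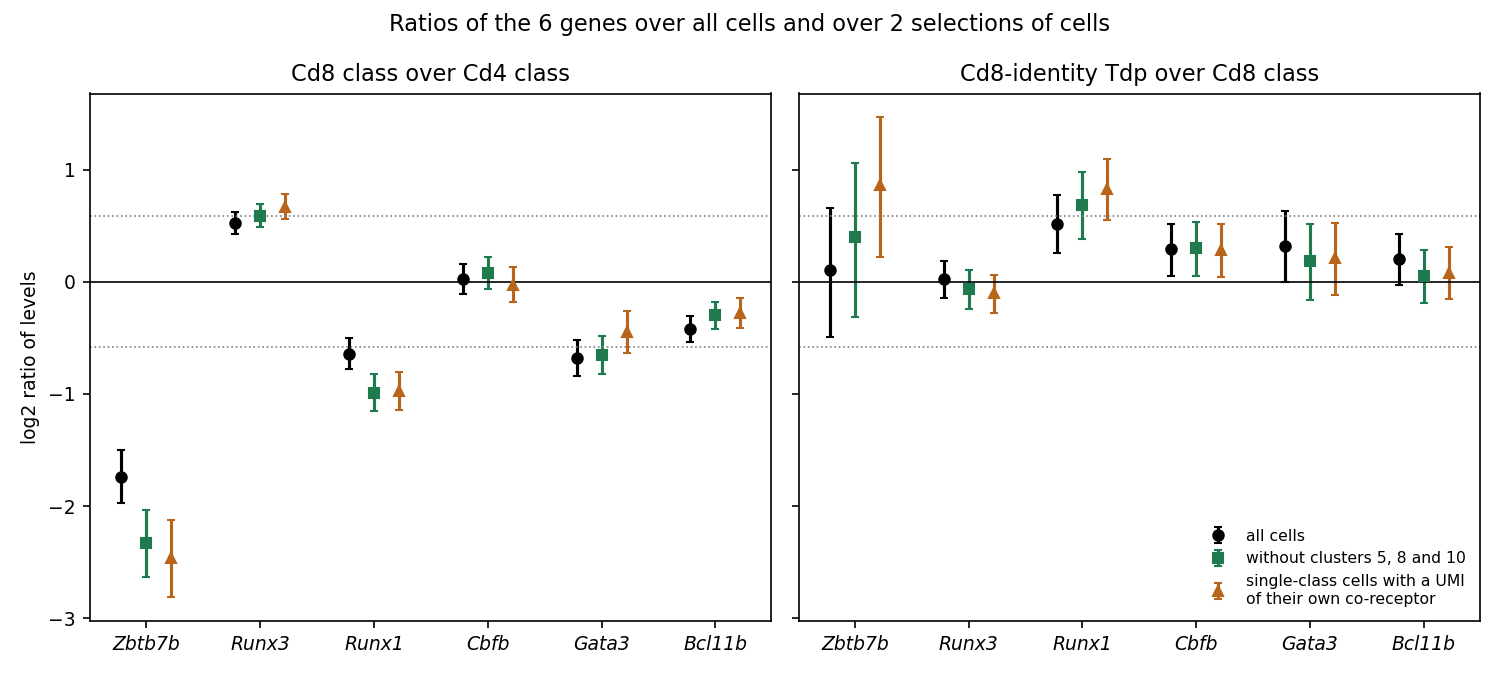
Log2 ratio of the level of each gene, Cd8 class over Cd4 class (left) and Cd8-identity Tdp cells over the Cd8 class (right), with exact 95% counting intervals. Circles are all cells, squares leave out clusters 5, 8 and 10, triangles keep single-class cells with a UMI of their own co-receptor, and dotted lines mark 1.5-fold. Zbtb7b goes from 3.33-fold to 5.51-fold lower on the left, and Runx1 from 1.43-fold to 1.77-fold higher on the right.

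Cd8-identity Tdp cells were set against the Cd8 class, since they carry Cd4 transcripts on a Cd8 background. None of the 6 genes was called, beside 6.68% of the 11040 measured genes, 2.07% higher and 4.60% lower. Zbtb7b was at 1.08-fold (0.713 to 1.58), Runx3 at 1.02-fold (0.905 to 1.14) and Runx1 at 1.43-fold (1.20 to 1.71). Cbfb was at 1.22-fold (1.04 to 1.43), Gata3 at 1.25-fold (1.00 to 1.55) and Bcl11b at 1.15-fold (0.981 to 1.34). The 6 ratios had a median log2 value of 0.25, and that of all measured genes was 0.02. At an equal depth of 2000 UMIs per cell the ratio of Zbtb7b was below 1, at 0.689 (0.289 to 1.41).

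All 313 Tdp cells of Cd8 identity had a Cd8a UMI, while the Cd8 class holds 339 cells with no co-receptor UMI, and all 10 macrophage markers were lower in the Tdp cells. Against the 1954 cells of the Cd8 class with a Cd8a UMI, Zbtb7b was 1.82-fold higher (1.17 to 2.77) in the Tdp cells, at 16.5 against 9.05 CPM, on 31 and 90 UMIs. Runx1 was 1.77-fold higher (1.47 to 2.14), at 80.8 against 45.6 CPM, and Runx3 was at 0.931-fold (0.827 to 1.05). When clusters 5, 8 and 10 and cells with 2 receptor beta genes were left out on both sides, Zbtb7b was 1.92-fold higher (1.08 to 3.26), at 15.4 against 8.02 CPM, and Runx1 1.81-fold higher (1.41 to 2.30). Against the whole Cd8 class, not only its Cd8a-positive cells, leaving out those clusters alone gave 1.32-fold (0.807 to 2.08) for Zbtb7b. For Runx1 it gave 1.61-fold (1.30 to 1.98).

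By hashtag number, the ratio of Zbtb7b in the Tdp cells to the Cd8a-positive cells was 1.87, 2.15, 1.59 and 1.47, each with an interval that includes 1. Runx1 was at 1.77 (1.06 to 2.90), 1.72 (1.18 to 2.46), 0.943 (0.493 to 1.65) and 2.21 (1.60 to 3.03), so number 3 did not share the difference. Over all cells and without number 4, the ratio of Runx1 to the Cd8 class was 1.19 (0.932 to 1.49). In 20 of the 313 Tdp cells, those of clusters 5, 8 and 10, lay 25.8% of the Zbtb7b UMIs (8 of 31) and 24.3% of the Runx1 UMIs. The part of macrophage or dendritic transcripts in these levels was not tested beyond leaving such cells out.

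In Cd4-identity Tdp cells, which carry Cd8a transcripts on a Cd4 background, 1 of the 6 genes was called against the Cd4 class, beside 5.12% of 10602 genes in either direction, 2.20% higher and 2.92% lower. It was Zbtb7b, 1.83-fold lower (1.11 to 3.22) on 16 UMIs. Cbfb was 1.38-fold lower (0.969 to 2.03) and Runx3 was at 1.16-fold (0.914 to 1.45). Runx1 was at 0.835-fold (0.598 to 1.14), Gata3 at 0.953-fold (0.665 to 1.33) and Bcl11b at 0.878-fold (0.663 to 1.14).

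By number, Zbtb7b had log2 ratios of 0.10, -1.52 and -0.53 for numbers 1, 2 and 4, so the direction was not shared. Cbfb was lower in each of these numbers (-0.52, -0.50 and -0.75) and Runx3 higher (0.34, 0.29 and 0.23). Without cells that carry 2 receptor beta genes, which hold 51.0% of the UMIs of these Tdp cells, Zbtb7b was 1.21-fold lower with a ratio of 0.825 (0.423 to 1.45). Without number 2 the ratio was 0.670 (0.343 to 1.18), and without number 3, whose 9 cells had no Zbtb7b UMI, 0.641 (0.364 to 1.05). Among Cd4 class cells themselves, the 290 with a Cd8b1 UMI had 35.7 CPM of Zbtb7b and the others 53.6 CPM, a ratio of 0.667 (0.494 to 0.885). The 290 cells were deeper, with a median of 4019 against 3445 UMIs, and fewer held a Cd4 UMI, 49.3% against 65.2%. The part of droplets with 2 cells, or of wrongly called identities, in this ratio was not tested.

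Between the Tdp cells of either identity, 1 of the 6 genes was called, beside 7.04% of 8121 genes in either direction, 3.95% higher and 3.09% lower. Cbfb was 1.72-fold higher (1.18 to 2.59) with Cd8 identity, and higher in 3 of 3 numbers (log2 0.28 to 1.26). The 8 cycling markers summed to 1515 CPM in the Cd8-identity and 929.5 CPM in the Cd4-identity Tdp cells, and 5 of the 8 were higher in the former. Without cells that hold at least 5 UMIs of them the ratio of Cbfb was 1.39 (0.847 to 2.40), short of the rule. Without cells that carry 2 receptor beta genes it was 1.55 (0.947 to 2.70). Zbtb7b was at 0.590-fold (0.313 to 1.15), lower in 3 of 3 numbers, and Runx3 at 1.27-fold (0.991 to 1.63), higher in 3 of 3 numbers. Where a cell needed Cd4 together with either Cd8a or Cd8b1, a wider set of 355 Cd8-identity and 236 Cd4-identity cells, Zbtb7b was at 0.515-fold (0.328 to 0.804) and Runx3 at 1.36-fold (1.14 to 1.63).

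Sorted by the co-receptor UMIs of each cell, Cd8-identity cells with Cd8a or Cd8b1 only (2271 cells) had 9.70 CPM of Zbtb7b (7.96 to 11.7). Those with Cd4 as well (355 cells) had 17.7 CPM (12.5 to 24.4), and those with neither (339 cells) had 41.2 CPM (32.8 to 51.1). The 29 with Cd4 only had 57.1 CPM (28.5 to 102) on 11 UMIs. Zbtb7b was thus lowest where only the CD8 genes were seen. Of the 339 cells with neither, 97 lay outside clusters 5, 8 and 10, and these had 34.4 CPM (20.03 to 55.1), against 8.26 CPM in the 2194 CD8-positive cells outside those clusters. Runx3 in the same 97 cells was 89.0 CPM (64.7 to 119), against 194 CPM in the positive ones. These 97 cells, with a Cd8 identity but no co-receptor UMI, were therefore high in Zbtb7b and low in Runx3, and Bcl11b was at 1.05-fold (0.774 to 1.39) between the same groups. Whether their Cd8 identity was rightly called was not tested. Cd8b1 was seen in 56.9% of Cd8 class cells of cluster 2, a cluster of mostly Cd4 class cells, and 58.7% in cluster 9. In clusters 1, 4, 6 and 7 it was seen in 86.3% to 99.3%.

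Cd4-identity cells showed a narrower range. Zbtb7b was 51.3 CPM (46.1 to 57.0) with Cd4 only, 59.4 CPM (49.9 to 70.2) with neither, 36.1 CPM (23.3 to 53.3) with Cd8a or Cd8b1 only and 34.3 CPM (25.5 to 45.2) with both. The intervals of cells with Cd4 only and with both do not meet. Runx3 lay between 120 and 146 CPM in these 4 groups, whose intervals overlap.

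**Figure D3:**
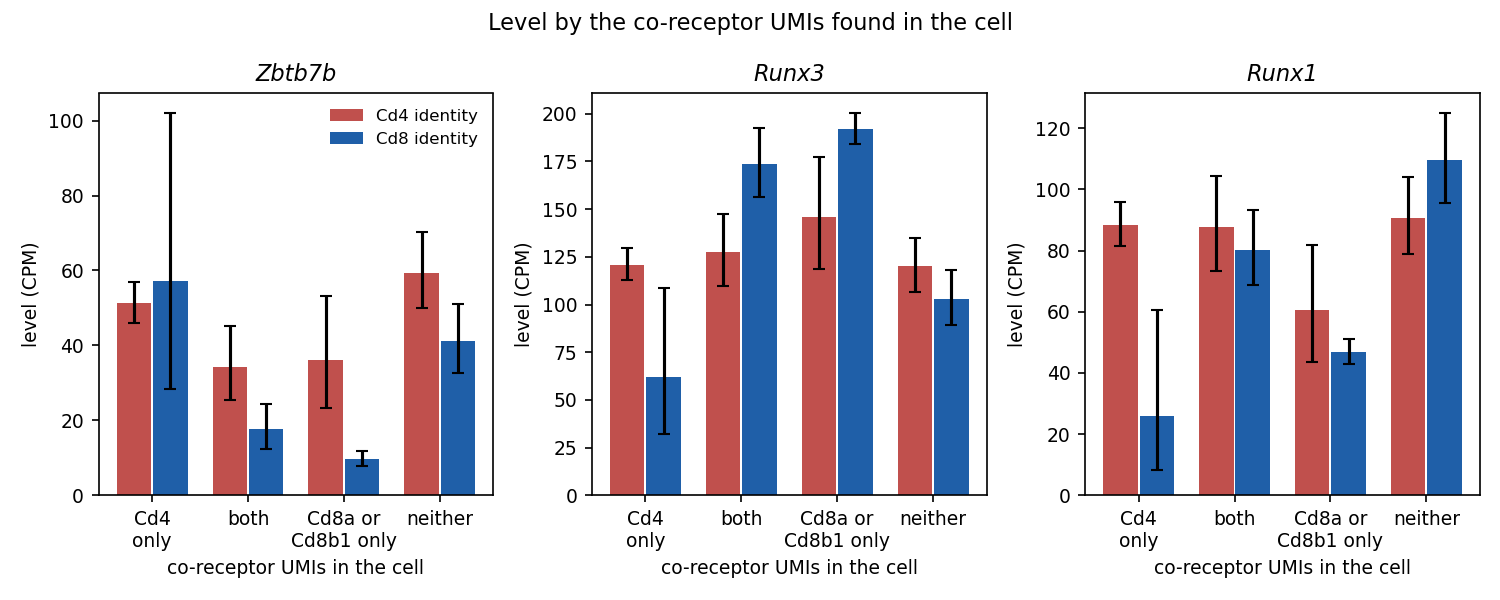
Level (CPM) of Zbtb7b, Runx3 and Runx1 in cells sorted by the co-receptor UMIs they hold, for Cd4-identity and Cd8-identity cells, with exact Poisson 95% intervals. Zbtb7b in Cd8-identity cells runs from 9.70 CPM with CD8 genes only to 41.2 CPM with neither.

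Cells were also grouped into 10 clusters from which the 6 genes, Cd4, Cd8a and Cd8b1 were left out. Cluster 1, which holds most of the Cd8 class and is led by Ccl5 and Klrc1, and cluster 6, naive or memory-like with Ccr7 among its leading genes, had the most Runx3 of all clusters but the shallow number 8, at 200.1 CPM (190 to 211) and 201 CPM (177 to 228). Zbtb7b was 11.4 CPM in cluster 1 and 5.51 CPM (2.21 to 11.3) in cluster 6. Clusters 2, led by Serpinb1a and Cd40lg, and 3, regulatory T cell-like, hold mostly Cd4 class cells and had 55.7 and 53.1 CPM of Zbtb7b. Cluster 9, led by the cytokine genes Csf2, Ccl1, Ccl4 and Ccl3, had the least Runx3, at 84.0 CPM (65.1 to 107). Within the Cd8 class alone, cluster 9 had 65.2 CPM of Runx3 on 24 UMIs. Its ratio to the other cells of that class was 0.363 (0.232 to 0.542), and in the Cd4 class the ratio was 0.797 (0.556 to 1.11). In CPM the lower level in the Cd8 class was not confined to Runx3. Bcl11b was at 0.465 (0.259 to 0.770), Runx1 at 0.475 (0.227 to 0.879) and Cbfb at 0.581 (0.337 to 0.934). Gata3, at 0.893, and Zbtb7b, at 1.07, had intervals that include 1. These are shares of a larger total, since the 46 cells had a median of 6242.5 UMIs, against 4159 in the whole Cd8 class. A Runx3 UMI was found in 37.0% of them and 52.6% of the other cells of the class. For Bcl11b the shares were 30.4% and 32.6%, for Runx1 19.6% and 21.4% and for Cbfb 30.4% and 30.1%. Of these 46 cells of the Cd8 class 32.6% held a Cd4 UMI, against 2.13% of the other cells of the class, and Cd8b1 was seen in 58.7% against 85.5%. Among cells of the Cd8 class with no Cd4 UMI, the ratio of Runx3 in cluster 9 was 0.410 (0.238 to 0.657) on 17 UMIs in 31 cells. Among those with Cd8a or Cd8b1 and no Cd4 UMI it was 0.389 (0.222 to 0.634) on 16 UMIs in 26 cells. In those 26 cells Runx1 was at 0.298 (0.0613 to 0.876) on 3 UMIs and Bcl11b at 0.445 (0.203 to 0.849) on 9. The intervals of Zbtb7b, Cbfb and Gata3 included 1 there.

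Leaving cluster 8 aside, Gata3 was highest in the regulatory T cell-like cluster 3, at 114 CPM (100.2 to 128). Within the Cd4 class it was 115 CPM in cluster 3 and 56.3 CPM in the others, a ratio of 2.05 (1.75 to 2.40), while Zbtb7b, Runx3 and Runx1 had ratios from 0.984 to 1.09 there. Taken by a Foxp3 UMI instead, Cd4 class cells with Foxp3 (555 cells) had 1.71-fold more Gata3 (1.46 to 2.00). The ratio of Zbtb7b between the same cells was 1.03 (0.836 to 1.26), that of Runx1 1.06 and that of Bcl11b 1.05.

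Leaving cluster 8 aside, Cbfb was highest in the cycling cluster 4, at 133 CPM (124 to 144). Marked cycling cells had 1.97-fold more Cbfb (1.70 to 2.28) in the Cd4 class, at 127 against 64.5 CPM, and 1.99-fold more (1.75 to 2.25) in the Cd8 class, at 127 against 63.8 CPM. Its RUNX partners did not share this: Runx3 was at 0.833-fold and 0.848-fold, and Runx1 at 0.602-fold and 0.844-fold. In CPM Zbtb7b was lower in cycling cells of the Cd4 class, at 0.545-fold (0.415 to 0.706), and stood at 0.853-fold (0.595 to 1.20) in the Cd8 class. These are shares of a larger total, since cycling cells of the Cd4 class had a median of 8106.5 UMIs and the others 3365. A Zbtb7b UMI was found in 24.6% of the former and 18.3% of the latter, so detection per cell was not lower.

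Runx1 was lowest in cluster 6, at 24.4 CPM (16.6 to 34.6), and within the Cd8 class the ratio of cluster 6 to the rest was 0.393 (0.259 to 0.572). It was 129 CPM (116 to 143) in the macrophage or monocyte-like cluster 5, more than in any cluster but number 8. Bcl11b and Gata3, which macrophages should lack, still gave 32.5 and 23.9 CPM in cluster 5, and a UMI in 21.3% and 17.2% of its cells at a median of 9484 UMIs. In cluster 2, at a median of 3467 UMIs, the shares were 35.7% and 19.3%. Within cluster 5 Bcl11b was 55.1 CPM in 42.0% of Cd4 class cells and 19.6 CPM in 12.4% of Cd8 class cells, so its level is no fixed floor. The source of these counts was not tested. In cluster 5 this pair of genes is not read as macrophage expression, and low levels of it elsewhere are read with the same caution. Zbtb7b in cluster 5, 44.0 CPM (36.7 to 52.3) in 31.8% of cells, was higher than in 6 of the other 9 clusters. The plot of levels by cluster also shows cluster 8, whose values rest on 13 to 61 UMIs per gene.

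**Figure D4:**
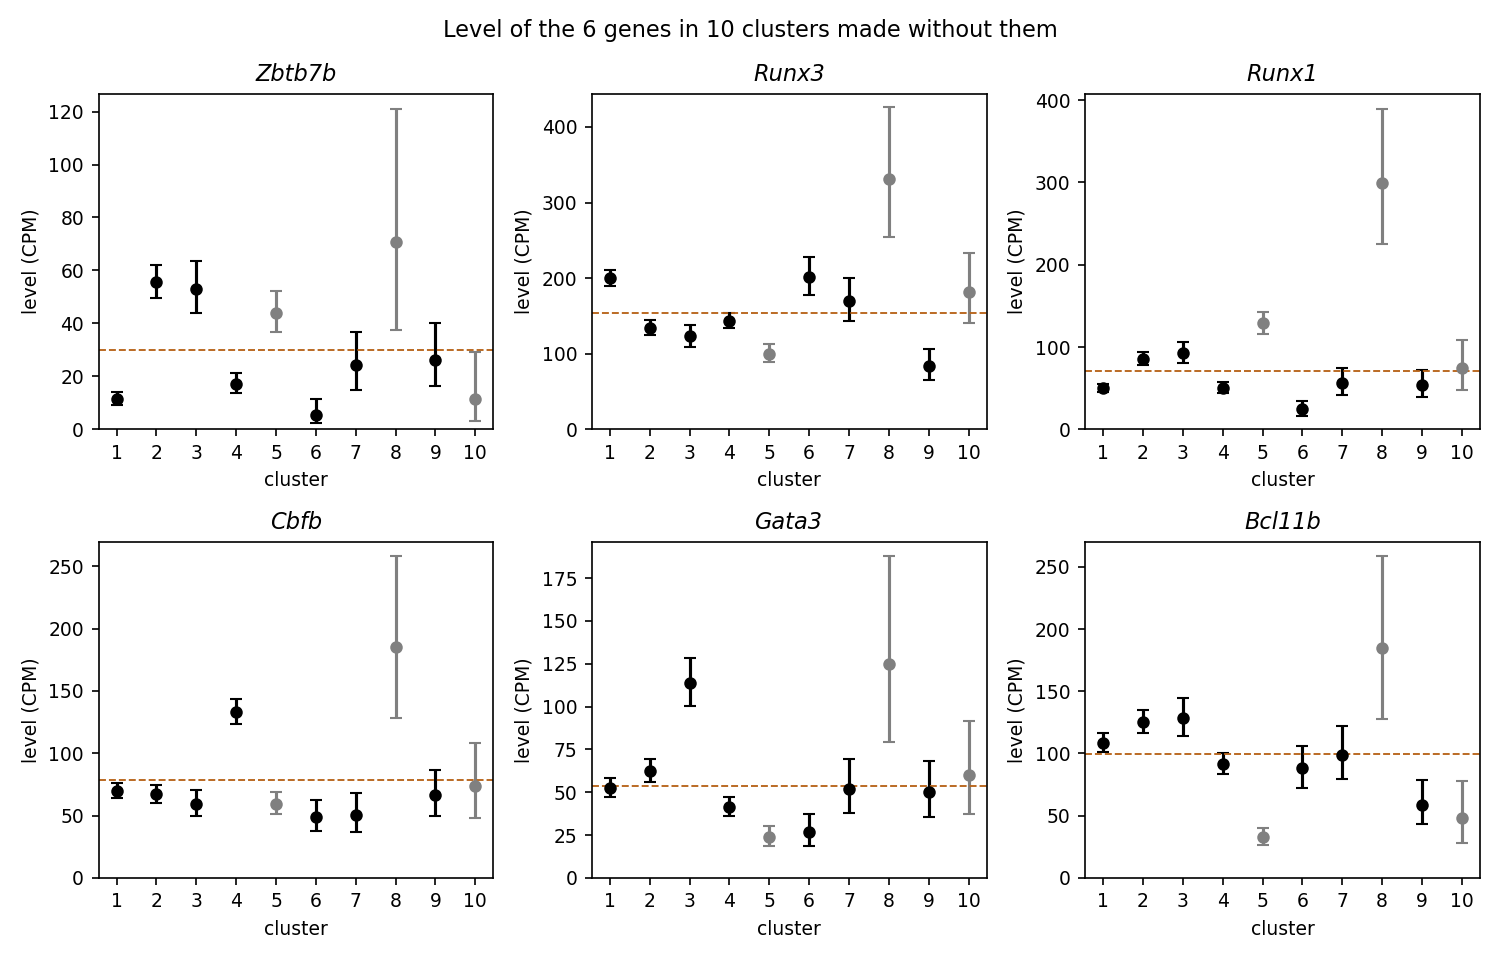
Level (CPM) of the 6 genes in 10 clusters made without them, with exact Poisson 95% intervals and a dashed line at the level over all cells. Grey points are clusters 5 (macrophage or monocyte-like), 8 (unnamed, low depth) and 10 (NK-like). Gata3 peaks at 114 CPM in cluster 3 and Cbfb at 133 CPM in cluster 4 among the other clusters.

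Per-cell detection asked whether Zbtb7b and Runx3 exclude each other within a class. A UMI of both was found in 203 cells of the Cd4 class (8.20%), 6 Cd4-identity Tdp cells (6.45%), 101 cells of the Cd8 class (3.77%) and 16 Cd8-identity Tdp cells (5.11%). Cells with both were deep, with medians of 5037 UMIs in the Cd4 class and 6520 in the Cd8 class. In the Cd4 class Runx3 was seen in 43.4% of cells with Zbtb7b and 35.5% of cells without. In the Cd8 class the shares were 57.1% and 52.0%.

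At an equal depth of 2000 UMIs per cell the excess was gone. Runx3 was then found in 19.7% of Cd4 class cells with Zbtb7b and 22.2% without, a difference of -2.42 points (-7.43 to 3.49). In the Cd8 class it was found in 24.2% and 30.5%, a difference of -6.33 points (-14.2 to 3.56). Both intervals include 0, so exclusion or joint detection was not detectable at this depth beyond those bounds. Without hashtag number 4 the difference in the Cd8 class was -12.1 points (-19.4 to -1.83), and without cells that hold markers of other types it was -1.03 points (-11.5 to 11.8). These values at 2000 UMIs come from a single random draw, and their intervals leave out the error of that draw. Averaged over all possible draws of 2000 UMIs, the difference was 0.12 points in the Cd4 class and -1.91 points in the Cd8 class. In the Cd8 class, markers of other cell types were found in 35.6% of the cells with both genes and 36.8% of those with Zbtb7b only, against 9.75% of those with Runx3 only.

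**Figure D5:**
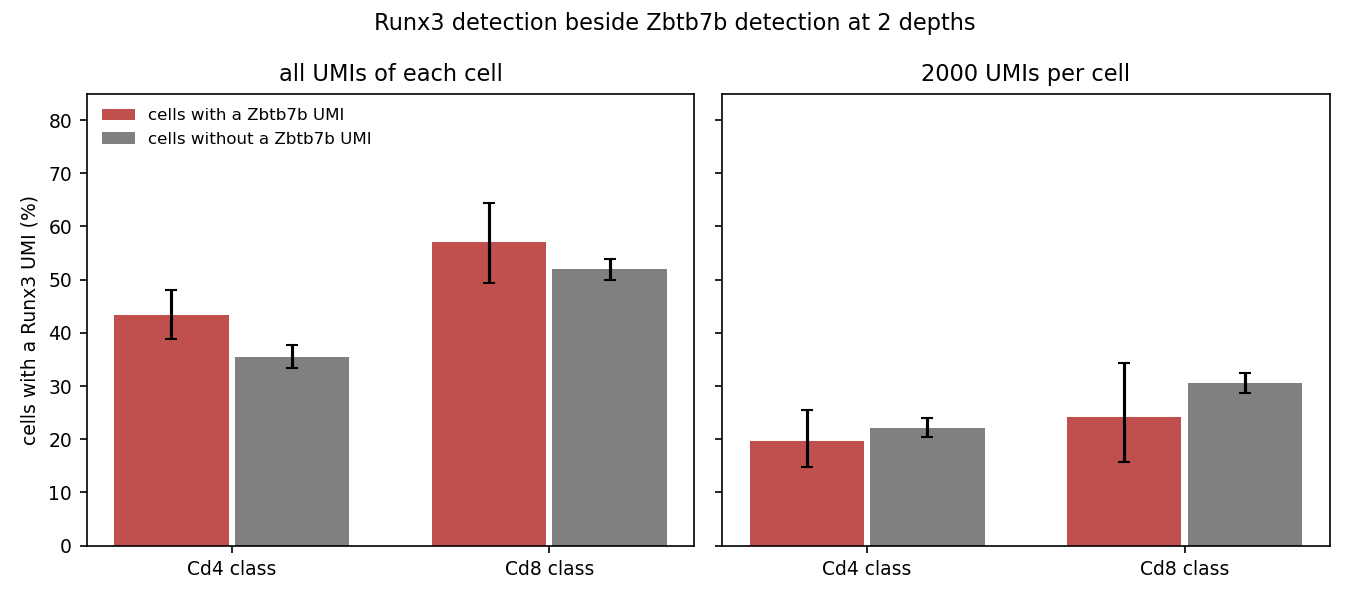
Share of cells with a Runx3 UMI (%) among cells with and without a Zbtb7b UMI, from all UMIs (left) and from a single random draw of 2000 UMIs per cell (right), with exact binomial 95% intervals. The higher share beside Zbtb7b on the left, 43.4% against 35.5% in the Cd4 class, is 19.7% against 22.2% at equal depth.

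Thinning kept 2245 of 2477 cells of the Cd4 class, 89 of 93, 2500 of 2681 and 309 of 313 in the classes as ordered above. At this depth Zbtb7b was found in 10.2%, 6.74%, 3.64% and 2.59% of cells, and Runx3 in 21.9%, 23.6%, 30.3% and 30.7%. Without thinning the shares of Zbtb7b were 18.9%, 16.1%, 6.60% and 8.95%, and at either depth the intervals of the last pair overlap, so they were given no order. Among the other pairs of genes at equal depth, the interval of the difference left out 0 for Runx3 with Bcl11b in the Cd4 class (Bcl11b in 23.4% of cells with Runx3 and 19.3% without) and for Gata3 with Bcl11b in the Cd8 class (11.9% and 7.97% of cells with and without Bcl11b). In the Cd4 class Gata3 was seen less beside Cbfb, in 8.74% against 12.9% of cells. These pairs were picked from all pairs of the 6 genes in each class, and no adjustment was made over them. They rest on a single random draw of UMIs, and some intervals could leave out 0 by chance. A UMI of none of the 6 genes was found in 36.3% of thinned Cd4 class cells and 40.2% of thinned Cd8 class cells.

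Beyond the 6 genes, 24 other regulators known for lineage choice or co-receptor genes were followed. Between the Cd8 and Cd4 classes 4 were higher and 2 lower, beside 8.19% and 6.55% of all measured genes. Their median log2 ratio was 0.02, beside -0.02 over all measured genes. Bcl11a, a relative of Bcl11b, was 4.11-fold higher over all cells, those of cluster 5 included, on only 78 UMIs in the Cd8 class and 15 in the Cd4 class. Id3, an inhibitor of E proteins, was 2.64-fold higher. Tox, which CD4 lineage precursors need and which also marks chronically stimulated CD8 cells, was 2.09-fold higher. Lower were Socs1, an inhibitor of cytokine signals, at 1.70-fold and Gfi1, a repressor, at 1.52-fold. In Cd8-identity Tdp cells against the Cd8 class none was higher and 1 was lower (Id3, 1.74-fold), beside 2.07% and 4.60% of all measured genes. Between the Tdp cells none was called, beside 7.04% of all measured genes. In Cd4-identity Tdp cells against the Cd4 class Bcl11a (on 6 UMIs) and Tox (1.76-fold) were higher and Socs1 was lower (1.91-fold). Of all measured genes 2.20% were higher and 2.92% lower there. Without hashtag number 3 Tox was at 1.42-fold (0.945 to 2.05), which ends its call.

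Genes linked to Runx3 in cytotoxic and resident cells were counted beside it. Of 9, 6 were higher in the Cd8 class than in the Cd4 class, beside 8.19% of all measured genes. They were led by Eomes (12.0-fold), which is also among the NK markers, and Cd160 (6.72-fold). Itgae, an integrin of resident cells, and Gzmb, a granzyme, were 2.40-fold and 1.82-fold lower. Of 9 helper genes 8 were lower, among them Foxp3 (13.2-fold) and Tnfrsf4 (6.81-fold), beside 6.55% of all measured genes. In Cd4-identity Tdp cells 5 of the 9 cytotoxic genes were higher than in the Cd4 class, beside 2.20% of all measured genes. They include Cd160 (4.12-fold) and Prf1 (3.42-fold), while Runx3 was at 1.16-fold. The share of cells that carry 2 receptor beta genes was 38.7% in these Tdp cells and 9.29% in the Cd4 class. Without such cells (57 Tdp cells left) 5 of the 9 were again higher, with Cd160 at 6.04-fold (3.60 to 9.67) and Prf1 at 3.14-fold (1.52 to 5.82) on 21 and 11 UMIs. In Cd8-identity Tdp cells none of the cytotoxic genes was called against the Cd8 class, and Foxp3 alone of the helper genes was higher, 2.17-fold. Of all measured genes 2.07% were higher and 4.60% lower there. Without cells that carry 2 receptor beta genes, Foxp3 was at 1.53-fold (0.956 to 2.36), which ends its call, and Itgae was 2.07-fold lower. Without clusters 5, 8 and 10, Ifng, the gene of interferon gamma, was 1.60-fold lower in these Tdp cells. These selections of cells for the gene lists, and those for clusters 5 and 9, were chosen after the data were seen. The co-receptor genes, part of the class calls, stood at 270.2 CPM for Cd4, 24.1 for Cd8a and 83.8 for Cd8b1 in the Cd4 class, and at 9.02, 524 and 1536 CPM in the Cd8 class.

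Across the 15 groups of class and hashtag number with at least 20 cells, which share 1 library and often the same cell states, Zbtb7b and Runx3 had a Pearson r of -0.76 on log2(CPM + 5). Zbtb7b and Runx1 had an r of 0.73 and Gata3 and Bcl11b one of 0.62. Among 5466 genes, those most like Zbtb7b were H2-T23, Fxyd5 and Pim1 (each 0.93), and those most like Runx3 were Nkg7 (0.89), Rasa3 (0.86) and Cd8b1 (0.85). Runx1 was nearest to Map2k3 (0.90), Cbfb to Cmc2 (0.91), Gata3 to Nebl (0.89) and Bcl11b to Zap70 (0.85). These values describe 15 groups of cells and carry no p-value.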

How the data were processed

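The deposited table gives UMI counts per gene and cell, with a second deposited table that gives each cell's identity, hashtag number and Tdp call. Cell Ranger 3.1.0, Seurat 3.2.3 and mm10 are named, without their roles, in the submitters' processing notes. The steps behind the filtering of cells, doublets, hashtags and class calls are "not given in the sources used here", and no doublet caller was run. The hashtag and T cell receptor libraries were not analysed here. Counts were summed per class with the 117 genes of T cell receptors and immunoglobulins (0.325% of UMIs) left out of the total, and given as CPM, with exact Poisson, conditional binomial, Clopper-Pearson or Newcombe 95% intervals, for counting error only. Clusters used scanpy 1.11.5 (20 components, 15 neighbours, resolution 0.5). Scripts (Python 3.11.15, scipy 1.17.1, with edgeR 4.0.16 for TMM factors) were tested on simulated data. Named genes are the 6 members, Cd4, Cd8a and Cd8b1, the 3 highest and 3 lowest ratios of each list in a comparison and the 3 genes most alike, of which some are not reported here. The members and lists were chosen with earlier results of these data known.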

Additional observations from a re-analysis of the deposited data

How the results depend on the processing

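Of the alternatives, none turned a called value. The log2 ratio of Zbtb7b between the Cd8 and Cd4 classes (-1.74) ran from -2.46 to -1.46 and kept its sign in 16 of 16 alternatives. It was -2.25 without cells of other types, -1.99 without hashtag number 1, -1.46 with a pseudocount of 5 CPM and, in alternatives added after the data were seen, -2.46 with an own co-receptor UMI and -2.33 without clusters 5, 8 and 10. Runx3 (0.53) reached 0.67 with an own co-receptor UMI. A 2-fold rule left 1 gene called between the Cd8 and Cd4 classes, 0 in Cd4-identity Tdp cells and 0 between the Tdp cells. In Cd8-identity Tdp cells (0 genes) the count was 1, Runx1, without cells of other types, without number 1, without number 2 or without clusters 5, 8 and 10. It was 2, with Zbtb7b, with an own co-receptor UMI and where Cd8 class cells were weighted to the Tdp cells by number, depth and co-receptor UMI. In Cd4-identity Tdp cells (1 gene) it was 0 at 2000 UMIs per cell, without cells with 2 receptor beta genes, without number 2 and without number 3. It was 2, with Cbfb, without cells of other types and under the weighting. Between the Tdp cells (1 gene) it was 0 at 2000 UMIs per cell, without cells with 2 receptor beta genes and without cycling cells. It was 2 with each cell counting the same, without cells of other types and without Foxp3 cells. The difference in Runx3 detection was 7.84 points in the Cd4 class and 5.07 in the Cd8 class with no thinning. No paired analysis was possible because there is 1 library. The Cd4-identity Tdp cells, with 16 Zbtb7b UMIs, limit what depth can show.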
